A study of Homo sapiens with 9 samples.

Results

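The proteasome subunit genes were examined for H3K4me3, the trimethylation of lysine 4 of histone H3 that marks active promoters. They were all protein-coding genes in the GENCODE annotation of hg19 whose symbol begins with PSMA, PSMB, PSMC, PSMD, PSME, PSMF or PSMG, which gave 50 of 20163 protein-coding genes. By name 2 of them are not parts of the proteasome, PSMC3IP, a cofactor of recombination, and PSME3IP1, a protein that binds PSME3, so counts are also given for the other 48. Genes were chosen by symbol and not by any measured value.

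H3K4me3 had been mapped by CUT&RUN, in which an antibody guides a nuclease to the mark and the cut fragments are sequenced, in HEL, a long-established erythroleukemia cell line of human origin used as a model of red cell precursors. The groups were NTC, cells given a non-targeting CRISPR guide (3 libraries), and METTL3-KO, METTL14-KO and WTAP-KO, cells given CRISPR guides against 1 subunit of the enzyme complex that writes m6A into mRNA (2 libraries each). Guides and Cas9 were delivered to the knockout (KO) cells by lentivirus, with no selection of a clone described, and peak lists do not measure how many cells were edited. The labels do not say that replicates came from separate cultures, so p-values measure at most the spread between these libraries.

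The proteasome is the barrel-shaped protease that degrades proteins tagged with ubiquitin. Its 20S core is built from alpha rings, which gate the barrel, and beta rings, which hold the cutting sites. The 19S cap recognises tagged proteins, removes the tag and unfolds the protein with a ring of ATPases, while the PSME proteins are alternative caps and the PSMG proteins are chaperones of assembly. Red cell precursors rely on this system to clear surplus globin chains and other proteins as they mature.

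Each library was a list of peaks with a value taken here as a signal that the authors calibrated to a yeast spike-in. How it was computed over a peak, and so how it depends on peak width, is not given in the sources used here. A gene was called marked in a library where a peak lay within 1000 bp of any annotated start, and its value was the signal of its largest such peak, in calibrated units. A value of 0 means that no peak was listed there. In bulk cells fewer marked cells and less mark per cell cannot be told apart. The NTC lists held 21831, 21941 and 21724 peaks, the METTL3-KO lists 9369 and 9205, the METTL14-KO lists 5286 and 3169 and the WTAP-KO lists 3160 and 3673. The widest peaks of the lists measured 1996 to 2000 bp. Sequencing depth is unknown, and the smallest step between values, taken as the calibrated worth of 1 fragment, ran from 0.320 to 1.32 units across libraries. Of 10 erythroid and megakaryocytic marker genes, 9 had a promoter peak in at least 1 NTC library, while 7 of 10 markers of other lineages had none in any library and PAX5, COL1A1 and PDGFRB did.

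The promoters printed here stand for the patterns described next. PSMD12 and PSMC6 kept a peak in all 9 libraries, and PSMD1 had one in the NTC libraries alone. PSMB3 and PSMD3 had one in all 6 KO libraries alone, and PSMG1 in the METTL14-KO and WTAP-KO libraries alone. The printed bases do not always lie in those peaks. The largest peak lay outside them for PSMD12 in METTL14-KO and WTAP-KO and for PSMC6 in WTAP-KO replicate 1. For PSMD3 it lay upstream of them in every KO library except METTL3-KO replicate 2. Sequences were read from the hg19 genome, 5′ to 3′ on the strand of the gene, over the 250 bases before its canonical start and ending where an annotated exon begins. Capitals mark matches on either strand to the letters of an antioxidant response element (TGACNNNGC), a CCAAT box (CCAAT), a GC box (GGGCGG), an ETS motif (CCGGAAGT), a YY1 motif (AAGATGGC) or, by name, an NRF1 motif, and in PSMG1 the response element adjoins a pair of GC boxes that overlap each other.
PSMD12 promoter, chr17:65362722-65362943, minus strand: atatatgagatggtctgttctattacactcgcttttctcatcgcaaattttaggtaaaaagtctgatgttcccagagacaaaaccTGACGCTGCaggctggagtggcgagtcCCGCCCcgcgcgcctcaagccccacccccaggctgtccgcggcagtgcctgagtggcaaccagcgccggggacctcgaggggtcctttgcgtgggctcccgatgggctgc
PSMC6 promoter, chr14:53173668-53173895, plus strand: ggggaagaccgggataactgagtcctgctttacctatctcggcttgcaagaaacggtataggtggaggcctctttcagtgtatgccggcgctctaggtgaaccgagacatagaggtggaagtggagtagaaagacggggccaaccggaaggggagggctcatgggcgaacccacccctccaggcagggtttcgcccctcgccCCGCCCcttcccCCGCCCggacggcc
PSMD1 promoter, chr2:231921331-231921558, plus strand: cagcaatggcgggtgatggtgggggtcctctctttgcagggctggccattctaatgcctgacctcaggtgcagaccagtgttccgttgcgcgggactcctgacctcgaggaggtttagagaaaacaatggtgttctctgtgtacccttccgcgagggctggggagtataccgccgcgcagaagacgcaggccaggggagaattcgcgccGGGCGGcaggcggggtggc
PSMB3 promoter, chr17:36908744-36908993, plus strand: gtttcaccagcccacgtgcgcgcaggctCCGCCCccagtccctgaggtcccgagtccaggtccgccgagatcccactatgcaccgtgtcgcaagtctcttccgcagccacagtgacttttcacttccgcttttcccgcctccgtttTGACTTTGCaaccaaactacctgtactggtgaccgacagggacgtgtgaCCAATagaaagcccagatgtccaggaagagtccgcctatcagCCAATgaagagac
PSMD3 promoter, chr17:38136810-38137059, plus strand: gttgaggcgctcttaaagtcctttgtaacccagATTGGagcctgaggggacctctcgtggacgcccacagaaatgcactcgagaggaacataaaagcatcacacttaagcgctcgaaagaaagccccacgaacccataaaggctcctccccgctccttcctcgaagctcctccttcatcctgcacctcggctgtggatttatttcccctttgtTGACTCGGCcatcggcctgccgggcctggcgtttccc
PSMG1 promoter, chr21:40555415-40555627, minus strand: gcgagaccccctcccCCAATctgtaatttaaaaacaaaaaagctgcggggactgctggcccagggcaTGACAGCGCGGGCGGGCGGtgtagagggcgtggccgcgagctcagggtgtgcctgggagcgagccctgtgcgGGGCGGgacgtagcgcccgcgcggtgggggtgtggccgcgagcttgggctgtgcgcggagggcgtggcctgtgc

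The antioxidant response element is the sequence bound by NFE2L1 and NFE2L2, of which NFE2L1 is known for raising proteasome genes when the protease is blocked. Its letters stood within the 300 bases around the canonical start, 250 before and 50 after, of 14 of 50 proteasome genes (28%) and 14.03% of all protein-coding genes. The ETS letters were in 14 (28%) against 6.09% of all genes. The YY1 letters were in 6 (12%) against 4.01%, the GC box in 35 (70%) against 60.9%, and the NRF1 letters in 1 (2%) against 1.69%. The CCAAT box was in 22 (44%) against 35.9%. It was found in 11 of the 15 proteasome genes with a peak in KO libraries alone and in 9 of the 30 marked in all 3 NTC libraries. Over all genes of those patterns its shares were 40.3% and 36.0%. Among all genes with a promoter peak in any library, 14.9% had the response element, 9.29% ETS and 5.82% YY1. The GC box was in 73.9% of those genes, NRF1 in 2.46% and the CCAAT box in 36.8%. The GC box and NRF1 shares of the proteasome genes thus lay above those of all genes and below those of genes with a peak. These matches describe the letters and were not tested. Median GC content was 61.7% for the proteasome genes and 66.0% for all genes with a promoter peak in any library.

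Proteasome genes were marked more often in every library than all protein-coding genes, of which 7685 had no promoter peak in any library. Among genes with any promoter peak the order in NTC was the other way. There 30, 32 and 32 of 48 proteasome genes were marked, a lower share than 9655, 9593 and 9441 of 12478. In the NTC libraries 30, 32 and 32 of 50 were marked (60%, 64% and 64%), beside 46.8% to 47.9% of all genes. In the METTL3-KO libraries 35 and 32 were marked (70% and 64%), beside 34.6% and 33.5%. In the METTL14-KO libraries 29 and 17 were marked (58% and 34%), beside 21.1% and 13.2%, and in the WTAP-KO libraries 15 and 18 (30% and 36%), beside 11.4% and 12.9%. The plot of shares by library shows that METTL3-KO had at least as many marked proteasome genes as NTC, while over all genes the KO shares lay below those of NTC without overlap.

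**Figure D1:**
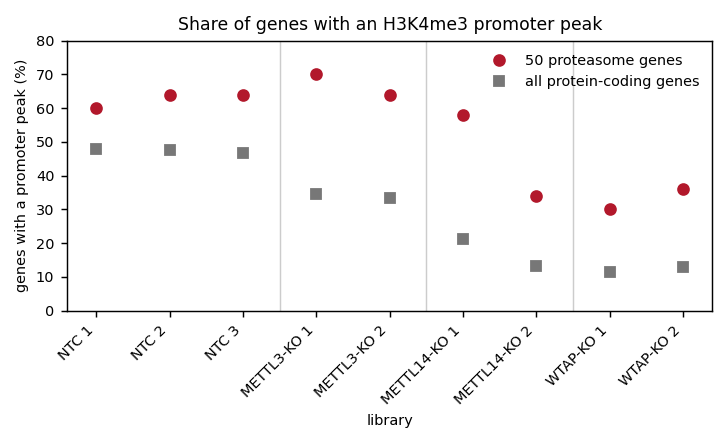
Percent of genes with an H3K4me3 promoter peak (vertical axis) in each of the 9 libraries (horizontal axis), for the 50 proteasome genes (red circles) and all 20163 protein-coding genes (grey squares). The red circles lie above the grey squares in every library, and METTL3-KO holds 70% and 64% of the proteasome genes.

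A count of marked genes hides which genes they were. Of the 50, 30 were marked in all 3 NTC libraries, 3 in some of them (PSMA2, PSMA6 and PSME4), 15 in KO libraries alone, and 2 in none (PSMA8, the testis form of an alpha subunit, and PSMB11, the thymus form of a beta subunit). The 15 were 31.2% of the 48 with any promoter peak, and over all genes with any promoter peak the share was 15.3% (1909 of 12478). Without PSMC3IP and PSME3IP1 they were 14 of 46. Counting peaks at the canonical start alone gave 16 of 48 (33.3%) and 17.8% of all genes.

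Of the 30 marked in all NTC libraries, 7 (23.3%) had no peak in METTL3-KO. The share was 46.3% over all 8495 genes marked in all NTC libraries and 43.5% over those of equal NTC signal, taken from genes in the same 10% band of mean NTC signal as each member and averaged over members. METTL14-KO had no peak for 18 (60%), beside 73.3% of all genes and 71.9% at equal signal. WTAP-KO had none for 25 (83.3%), beside 84.9% and 83.2%. No KO library had a peak for 7 (23.3%), beside 45.8% and 43.0%. These shares are descriptions without a test. In METTL3-KO the 7 became 11 when the first of its libraries was left out, and in METTL14-KO the 18 reached 25 with a library left out. Shares over all genes were not recomputed for those counts.

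**Figure D2:**
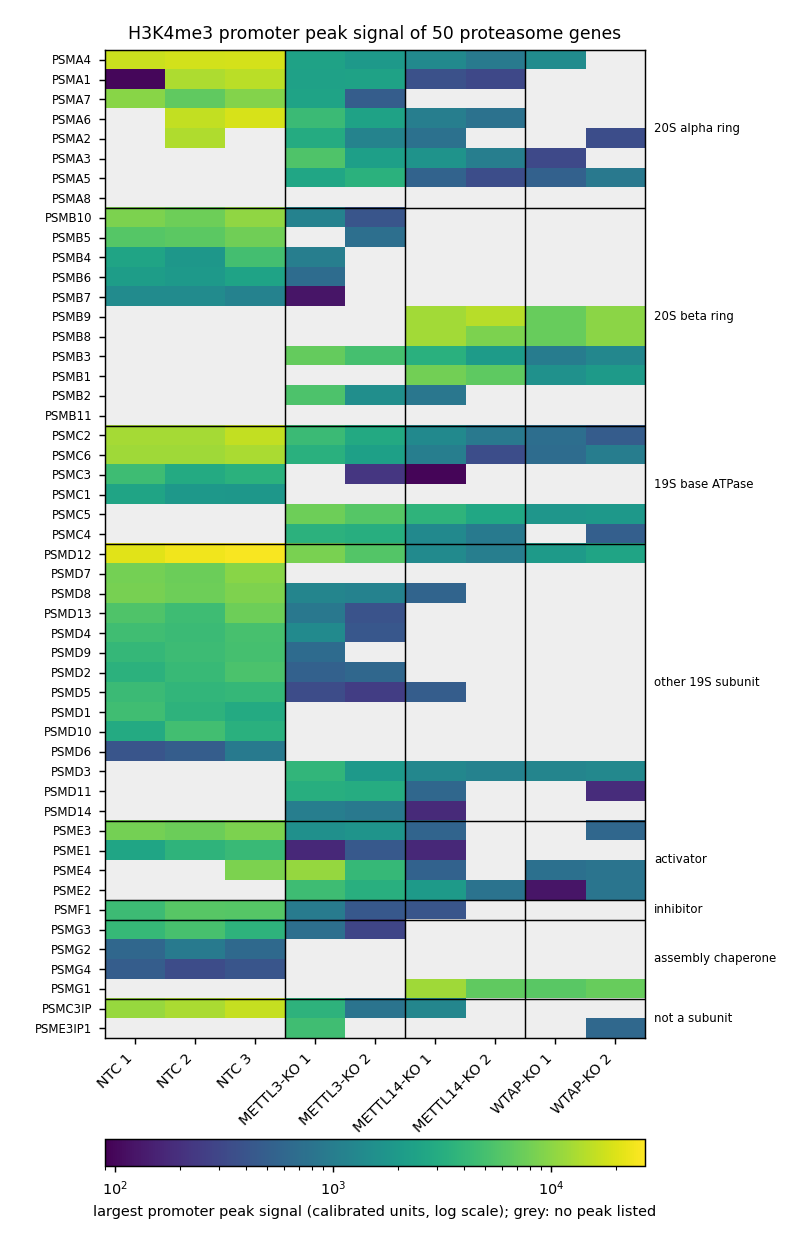
Largest H3K4me3 promoter peak signal (calibrated units, log colour scale) of the 50 proteasome genes (rows, grouped by role) in the 9 libraries (columns), with grey where no peak was listed. The rows fall into genes bright in NTC and faint or grey in the KO libraries, such as PSMD12 and PSMD7, and genes grey in NTC with a KO peak, such as PSMC5 and PSMG1.

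Signal was compared gene by gene with limma on log2(signal + 30.1), in 1 model of all libraries and 12037 genes, with Benjamini-Hochberg adjustment over all of them. Of the 48 members tested, 29 fell and 14 rose in the KO groups together against NTC, where 73% of all genes fell and 14.3% rose. In METTL3-KO 25 fell and 10 rose (60.9% and 14% of all genes). In METTL14-KO 29 fell and 11 rose (68.8% and 8.38%), and in WTAP-KO 30 fell and 9 rose (69.7% and 6.81%). All 14 that rose had no NTC peak, and all 29 that fell had one in all 3 NTC libraries, so that a change on this scale mostly stands for a peak present on one side and not listed on the other. Its size then depends on the 30.1 added and is not given as a fold. Libraries without a listed peak all take the same value, so p-values for such genes leave out any spread below the peak threshold. The median log2 difference over the members was -4.40, and over all genes it was -5.30. Without PSMC3IP and PSME3IP1, 28 of 46 fell and 14 rose. In units of the step 15 members fell and 10 rose in METTL3-KO (48.7% and 14% of all genes). Centred on genes with a peak in all 9 libraries, which moved the median of all genes from -5.30 to -2.46, 14 fell and 16 rose in METTL3-KO (47.2% and 16.7% of all genes), and 19 fell and 15 rose in WTAP-KO (55.4% and 17%). The 3 KO comparisons share the NTC libraries.

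Of the 8 alpha subunits of the core, 3 were marked in all NTC libraries, 2 in some, 2 in KO libraries alone and 1 in none. PSMA4 had a signal of 17107, 18313 and 18875 in the NTC libraries, 2405 and 1917 in METTL3-KO, 1359 and 934 in METTL14-KO, and 1454 and 0 in WTAP-KO. Each KO value lay below each NTC value, and over the KO groups it fell (adjusted p = 0.00984, limma), but not in units of the step (adjusted p = 0.0703) or after centring (adjusted p = 0.247). The alpha subunit PSMA7 had 9883, 6704 and 9466 in NTC and 2465 and 487 in METTL3-KO, with no peak in METTL14-KO or WTAP-KO. Its NTC peaks were centred 1135 to 1172 bp after the canonical start, while the 2465 was a different peak, centred upstream of it, and PSMA7 shared a peak with SS18L1 in 5 libraries. In METTL3-KO it fell (adjusted p = 0.00625), but not in units of the step (adjusted p = 0.107), where that library, at 5352, lay within the NTC range of 5138 to 8290, or after centring (adjusted p = 0.131).

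Some alpha genes had uneven NTC libraries. PSMA6 had no peak in the first NTC library and 16121 and 19142 in the others, with widths of 1962 and 1978 bp, close to the widest that any list held. PSMA2 had 13620 in the second NTC library alone, and PSMA1 had 13279 and 14802 in the other NTC libraries but only a peak of 100 units in the first, at a distant alternative start (chr11:14664912-14665081). PSMA1 is named here after its values were seen. None of PSMA6, PSMA2 and PSMA1 passed the test over the KO groups (adjusted p = 0.36, 0.869 and 0.0903), and without the first NTC library PSMA6 fell by 5.30 (adjusted p = 6.15e-05). PSMA3 and PSMA5 had no NTC peak, and PSMA5 had 2642 and 3422 in METTL3-KO, 557 and 345 in METTL14-KO, and 530 and 899 in WTAP-KO. It rose in each KO group (adjusted p at most 3.65e-05).

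Of the 11 beta subunits, 5 were marked in all NTC libraries, 5 in KO libraries alone and 1 in none. The standard cutting sites are carried by PSMB5, PSMB6 and PSMB7, of chymotrypsin-like, caspase-like and trypsin-like activity. PSMB5 had 6006, 6421 and 7779 in NTC, a single KO peak of 722 in the second METTL3-KO library, and no other. PSMB6 had 2141, 1928 and 2445 in NTC and 681 in the first METTL3-KO library, and PSMB7 had 1404, 1401 and 1140 in NTC and 125 in the same METTL3-KO library. None of these had a peak in METTL14-KO or WTAP-KO, and all of them fell in METTL3-KO (adjusted p = 0.00609, 0.0229 and 0.000849) and in the other KO groups. For PSMB6 the METTL3-KO call was lost in units of the step (adjusted p = 0.113) and after centring (adjusted p = 0.109), and its WTAP-KO call after centring (adjusted p = 0.0592).

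PSMB8, PSMB9 and PSMB10 are the subunits that replace those cutting sites in the immunoproteasome, the form induced by interferon. PSMB10 behaved as the standard ones, with 8673, 7670 and 10434 in NTC, 1140 and 405 in METTL3-KO and no other peak. PSMB8 had no peak in NTC or METTL3-KO, and had 12152 and 8858 in METTL14-KO and 7141 and 10074 in WTAP-KO. It rose in both of those groups (adjusted p = 3.5e-07 and 4.05e-07). PSMB9 had the same values except 14660 in the second METTL14-KO library. It shares the peak at the PSMB8 promoter through an alternative start, and only that 14660 peak, at chr6:32821439-32822970 and shared with TAP1, covered its canonical start.

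Among the other beta genes, PSMB1 had no peak in NTC or METTL3-KO, 7940 and 6597 in METTL14-KO and 1594 and 1994 in WTAP-KO, in a peak shared with the neighbouring gene TBP. PSMB3, whose promoter with its response element and a pair of CCAAT boxes is printed above, had 7061 and 4974 in METTL3-KO, 3334 and 2067 in METTL14-KO and 989 and 1251 in WTAP-KO, and none in NTC. It rose in each KO group (adjusted p at most 1.27e-05) and, in calibrated units, lay in the order METTL3-KO, METTL14-KO, WTAP-KO without overlap. In units of the step METTL3-KO (15330 and 4658) and METTL14-KO (7578 and 4969) overlapped. PSMB2 had 5455 and 1509 in METTL3-KO and 866 in the first METTL14-KO library, and none in NTC, but within 3000 bp of a start it had NTC peaks of 29442, 27932 and 31823. PSMB4 had 2515, 1859 and 4890 in NTC and 1026 in the first METTL3-KO library.

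The 6 ATPases of the 19S base were divided in the same way, with 4 marked in all NTC libraries and 2 in KO libraries alone. PSMC6 had 11919, 12036 and 13097 in NTC (mean 12350 ± 649, SD, n = 3), 3388 and 2307 in METTL3-KO, 1026 and 343 in METTL14-KO and 676 and 1002 in WTAP-KO. Its mean was 23.1%, 5.54% and 6.79% of the NTC mean in the 3 KO groups. It fell in all of them (adjusted p = 0.00731, 0.000217 and 0.000363), and METTL14-KO and WTAP-KO overlapped. Centred, its change over the KO groups was -0.59 ± 0.23 (SE) (adjusted p = 0.0478), and only that in METTL14-KO passed the test (adjusted p = 0.343, 0.00733 and 0.603). In units of the step it did not pass in METTL3-KO (adjusted p = 0.171). PSMC5 showed the opposite pattern, with no NTC peak, 7707 and 6052 in METTL3-KO, 3671 and 2662 in METTL14-KO and 1798 and 1893 in WTAP-KO, in a peak shared with FTSJ3. It rose in each group (adjusted p at most 3.61e-06).

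PSMC2 had peaks in all 9 libraries, but not the same ones. Its NTC peaks of 12489, 12533 and 15902 lay about an upstream start, centred over 3000 bp before the canonical start and shared with DNAJC2. In METTL3-KO and WTAP-KO its largest peaks, 4400 and 2881 and then 703 and 476, lay at the canonical start, where no NTC or METTL14-KO peak was listed. Over the KO groups it fell by 3.32 ± 0.27 on the log2 scale (adjusted p = 2.89e-05), and at the canonical start alone the change was +3.75 (adjusted p = 2.21e-06), while with centring it was -0.48 (adjusted p = 0.143). PSMC1 had 2491, 1878 and 1829 in NTC and no KO peak.

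The 14 PSMD genes, which encode the other subunits of the 19S cap and some of its chaperones, were mostly marked in NTC, 11 in all its libraries and 3 in KO libraries alone. All 11 fell over the KO groups. In a separate fit to the 8495 genes marked in all NTC libraries, 98.6% fell, as did 29 of the 30 members. PSMD12, a subunit of the lid, had the highest NTC signal of all members, 20978, 24046 and 25773 (mean 23599 ± 2429, SD, n = 3). It had 8480 and 5930 in METTL3-KO, 1364 and 1031 in METTL14-KO and 2000 and 2540 in WTAP-KO, or 30.5%, 5.07% and 9.62% of the NTC mean. In calibrated units the 4 groups did not overlap. PSMD12 fell in each KO group, with log2 changes of -1.73 ± 0.25, -4.27 ± 0.25 and -3.37 ± 0.25 (SE) (adjusted p = 0.000725, 5.36e-06 and 1.88e-05). Centred, its change over the KO groups was -0.28 (adjusted p = 0.137), and it was 0.056 in METTL3-KO and 0.31 in WTAP-KO (adjusted p = 0.818 and 0.209). In units of the step it did not pass in METTL3-KO (adjusted p = 0.196). On that scale METTL3-KO (18410 and 5553) overlapped both NTC (15939, 18429 and 22572) and WTAP-KO (4913 and 7931). Its NTC peaks were 1953, 1899 and 1951 bp wide and covered the start, and its METTL14-KO and WTAP-KO peaks were 282 to 407 bp wide and centred 648 to 722 bp after it.

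PSMD7, a lid subunit that pairs with the deubiquitinating subunit PSMD14, had 8234, 7547 and 9703 in NTC and no KO peak. PSMD1, a scaffold subunit of the base, had 4703, 3563 and 2930 and no KO peak, and PSMD10, a chaperone of the base, had 2938, 4769 and 3396 and no KO peak. PSMD6 was the remaining PSMD gene without a KO peak, with 405, 488 and 921 in NTC. PSMD14 itself had none in NTC, 1033 and 902 in METTL3-KO and 180 in the first METTL14-KO library. PSMD3 had none in NTC, 3844 and 1956 in METTL3-KO, 1254 and 1136 in METTL14-KO and 1205 and 1303 in WTAP-KO, and PSMD11 had 3211 and 3054, then 609 and 0, then 0 and 185.

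Among the alternative caps, PSME1 and PSME3 were marked in all NTC libraries and PSME2, the partner of PSME1 in the interferon-induced cap, in KO libraries alone. PSME1 had 2602, 3707 and 4306 in NTC, 175 and 438 in METTL3-KO and 175 in the first METTL14-KO library. PSME2 had 4612 and 3274 in METTL3-KO, 2018 and 792 in METTL14-KO and 125 and 817 in WTAP-KO, and rose in each group (adjusted p = 0.000178, 0.000593 and 0.0042), though within 3000 bp of a start it had NTC peaks of 10831, 10431 and 11904. PSME4 had 8749 in NTC replicate 3 alone, and 10905 and 4097 in METTL3-KO, in peaks that do not overlap the NTC one. Over the KO groups it did not pass the test (adjusted p = 0.367), and without NTC replicate 3 it did (adjusted p = 0.0118). The inhibitor PSMF1 had 4477, 6147 and 6009 in NTC, 972 and 429 in METTL3-KO and 401 in the first METTL14-KO library.

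The assembly chaperones PSMG2, PSMG3 and PSMG4 were marked in all NTC libraries, at 600, 951 and 628 for PSMG2. PSMG2 and PSMG4 had no KO peak. The largest PSMG2 peak was centred before the canonical start in NTC replicates 1 and 2 and after it in replicate 3. PSMG2 shared a peak with CEP76 in 3 libraries. Counted at the canonical start alone, PSMG4 had no peak in NTC replicate 2. PSMG1, the partner of PSMG2 in assembling the alpha ring, had no peak in NTC or METTL3-KO and 11985 and 6731 in METTL14-KO and 6259 and 7109 in WTAP-KO. It rose in METTL14-KO and WTAP-KO (adjusted p = 5.45e-07 and 6.99e-07). PSMC3IP, which is not a subunit, had 11303, 13182 and 16377 in NTC, 3584 and 809 in METTL3-KO and 1226 in the first METTL14-KO library.

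**Figure D3:**
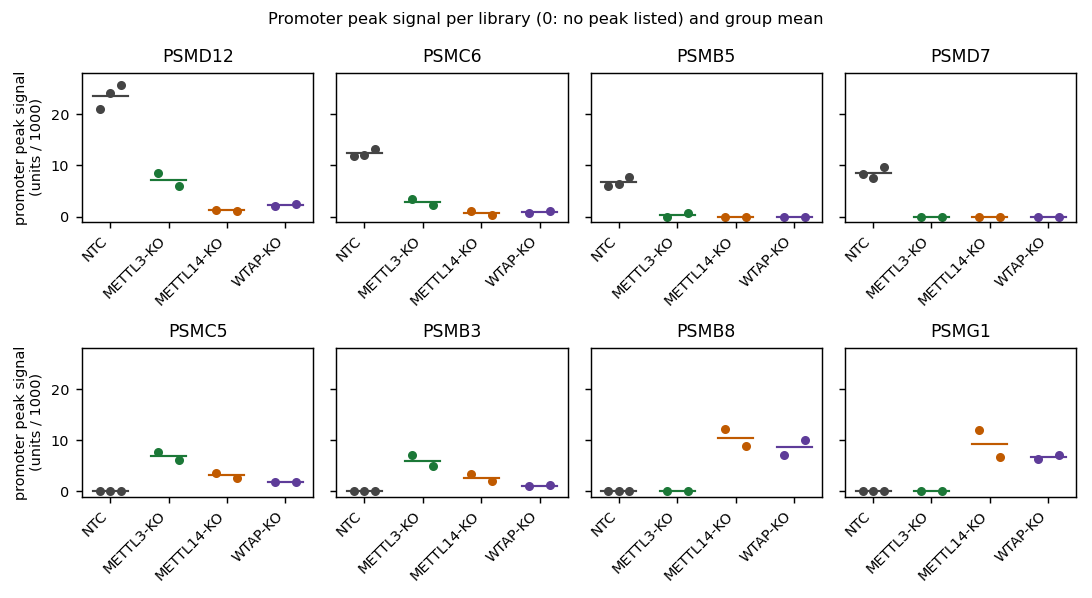
Promoter peak signal (calibrated units divided by 1000, with 0 for no listed peak) of 8 proteasome genes in the 4 groups, with a point for each library and a bar at the group mean. PSMD12, PSMC6, PSMB5 and PSMD7 are highest in NTC, PSMC5 and PSMB3 are highest in METTL3-KO, and PSMB8 and PSMG1 have points above 0 in METTL14-KO and WTAP-KO alone.

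METTL3-KO differed from the other KO groups. Of the 48 members tested, 21 were higher in METTL3-KO than in METTL14-KO and WTAP-KO averaged and 4 were lower, beside 29.5% and 0.582% of all genes. The 21 included PSMD2 (529 and 611 in METTL3-KO), PSMD13 (892 and 386), PSMG3 (715 and 299), PSMB10 and PSMD4 (1369 and 425), all without a peak in METTL14-KO or WTAP-KO (adjusted p from 3.87e-05 to 0.00035). PSMD12, with peaks in every library, was higher by 2.10 ± 0.23 on the log2 scale (adjusted p = 0.000788), but not in units of the step (adjusted p = 0.176) or after centring (adjusted p = 0.0614). In units of the step the count of 21 became 7 of 48 (14.6%), beside 16.7% of all genes. Centred on genes marked in all 9 libraries it became 10 higher (20.8%) and 11 lower (22.9%), beside 20% and 31.1% of all genes. The excess of members over all genes among those higher was thus not seen under either scaling. The count was 13 without NTC replicate 2, NTC replicate 3 or METTL3-KO replicate 1.

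The 4 that were lower were PSMB1, PSMB8, PSMB9 and PSMG1 (adjusted p from 8.98e-06 to 1.84e-05), which had a peak in all 4 METTL14-KO and WTAP-KO libraries and none in the 5 others. Across all protein-coding genes 52 had that pattern. Since PSMB8 and PSMB9 shared a peak in all 4 libraries, the 4 genes are not separate observations. Their widest KO peaks measured 1924 bp for PSMB8, 1575 bp for PSMG1 and 1765 bp for PSMB1.

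Peak width moved with these patterns. In METTL3-KO the largest promoter peaks of members marked in all NTC libraries had a median width of 408 bp, and those of members marked in KO libraries alone 1066 bp. In NTC the former had a median of 1257 bp and a highest of 1998 bp. Over all genes marked in METTL3-KO, the share without any NTC peak was 9.27% where the widest METTL3-KO peak was 150 to under 500 bp, 21.6% at 500 to under 1000 bp, 43.4% at 1000 to under 1500 bp and 70.3% at 1500 to 2000 bp. Of the 14 members at 1000 to under 1500 bp, 8 had no NTC peak, and of the 14 under 500 bp, 1 had none. The nearest NTC peak to the KO peaks of the 15 members lay 1610 to 100899 bp away, and under 3000 bp away for PSMB2, PSMG1, PSMB9 and PSMB8. Within 3000 bp of a start PSMG1 had NTC peaks of 1753 and 1267 in replicates 1 and 2, and its rise over the KO groups did not pass the test (adjusted p = 0.307), nor did that of PSMB9 (adjusted p = 0.158). A window of 3000 bp left 11 of 48 members (22.9%) with peaks in KO libraries alone, beside 12.2% of all genes. No list holds peaks over 2000 bp, and the part of that limit in the peaks that NTC and METTL3-KO lack was not tested.

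**Figure D4:**
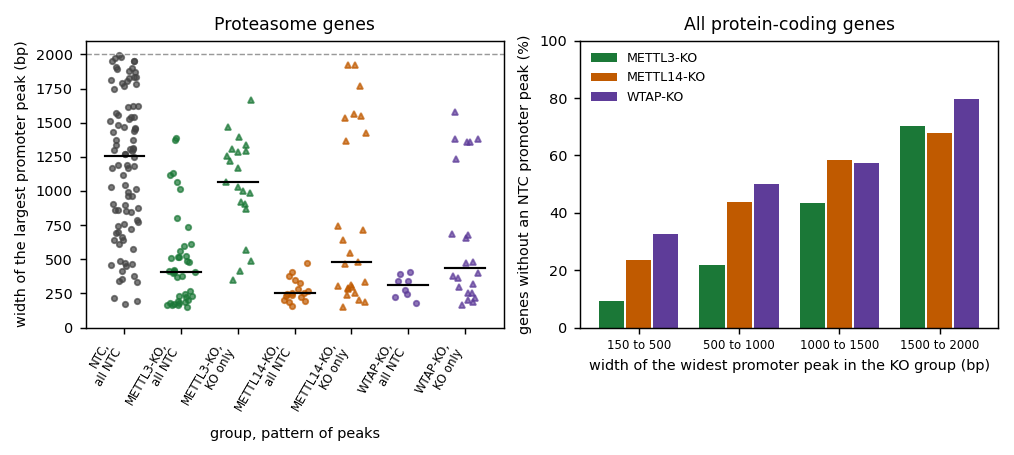
Left, width in bp of the largest promoter peak of each proteasome gene in each library, by group and by whether the gene was marked in all NTC libraries (circles) or in KO libraries alone (triangles), with black bars at the medians and a dashed line at the 2000 bp no peak exceeds. Right, percent of all protein-coding genes marked in a KO group that had no NTC promoter peak, by the width of their widest promoter peak in that group, which in METTL3-KO goes from 9.27% to 70.3%.

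Signal could be compared without listed zeros only where every library had a peak. The KO signal was 11.8% of NTC for PSMC6 and 15.1% for PSMD12, beside a median of 16.8% over the 665 genes with a peak in all 9 libraries, which are 7.83% of those marked in all NTC libraries. The third such member, PSMC2, at 13.1%, sets different peaks side by side. For the 17 with a peak in all NTC and both METTL3-KO libraries the median was 13.9%, PSMC2 and PSMA7 with their differing peaks included, beside 16.2% over 3386 genes. The step between values was lower in every KO library than in any NTC library, so that it cannot be told apart from the knockout. In units of it the values of PSMC6 and PSMD12 became 29.3% and 37.2% and the 16.8% became 42.3%.

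Members that share a promoter peak with a neighbouring gene cannot be assigned the mark alone, and 17 of 50 did so in at least 1 library, among them PSMC2 with DNAJC2, PSMC5 with FTSJ3, PSMB1 with TBP, PSME2 with RNF31, PSME3 with BECN1 and PSMA2 with MRPL32. Of the others, 31 shared no promoter peak with another protein-coding gene and 2 had no peak. Noncoding genes were not looked at.

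Of 29 genes for bound factors, ubiquitin, delivery of substrates and regulators, 18 were marked in all NTC libraries, 6 in some, 4 in KO libraries alone and 1 in none. The 4 were 14.3% of the 28 with any promoter peak, near the 15.3% of all genes. Over the KO groups 18 of 28 tested fell (64.3%) and 4 rose (14.3%), beside 73% and 14.3% of all genes. ADRM1, a ubiquitin receptor of the cap, fell (adjusted p = 3.91e-06), as did VCP, the unfoldase that delivers substrates (adjusted p = 0.000103), and DDI2, the protease that activates NFE2L1 (adjusted p = 4.30e-05). POMP, the chaperone that completes the core, had no NTC peak and rose (adjusted p = 1.66e-06), as did AKIRIN2, which brings proteasomes into the nucleus (adjusted p = 1.51e-05), and NFE2L1 (adjusted p = 5.58e-06).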

How the data were processed

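H3K4me3 CUT&RUN peaks of 9 HEL libraries were analysed, with groups and replicate numbers from the sample labels. The authors aligned paired 50 bp reads with Bowtie to hg19 and to yeast (sacCer3), calibrated to the spike-in, removed duplicates with Picard and called peaks in each library. Tool versions and the peak threshold are not given in the sources used here. The deposited values, whose definition is not given there either, were taken as a signal in calibrated units, not a count, and depth is unknown. The lowest listed value was 30.1 to 32.0 units in every library. That was 24 to 28 units of the smallest step between values in NTC and 30 to 94 in the KO libraries. The part of this floor in the peaks not listed in KO libraries was not tested.

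GENCODE 44 starts lifted to hg19 were used, and no peak ended past a chromosome. Members, lists, tests and motifs were chosen with earlier results of these data known. Signal was tested with limma 3.58.1 (R 4.3.3, trend option) on log2(signal + 30.1), the smallest value, over genes marked in at least 2 libraries, at an adjusted p of 0.05. Such differences understate weak genes. The limma fit was tried on simulated data, and the smallest step between values was not. Named were PSMB5 to PSMB10, members marked in all 9 libraries, the 5 of highest NTC signal, the 5 highest without a KO peak, those marked in some NTC libraries, and at most 10 by adjusted p where METTL3-KO differed. Others were named after their values were seen. Of the lineage markers, 1 gene is not reported here. Alternatives were the pseudocount (0.1 and 10 times), the filters, centring, division by the smallest step between values, summed peaks, a 3000 bp window, the gene start, a peak threshold, the replicate block, fitting the compared groups alone and leaving out each library. The canonical start was added after seeing the data. Python 3.11.15, pandas 2.3.3, numpy 2.4.6 and matplotlib 3.10.9 were used.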

Additional observations from a re-analysis of the deposited data

Results flagged for a closer look

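The difference between METTL3-KO and the average of METTL14-KO and WTAP-KO was tested gene by gene with limma, and 21 proteasome genes were higher and 4 lower in METTL3-KO. On the log2(signal + 30.1) scale the differences were -6.91 for PSMB1, -8.47 for PSMB9, -8.29 for PSMB8 and -8.01 for PSMG1, where METTL3-KO had no listed peak. They were 4.31 for PSMD2, 4.36 for PSMD13, 4.04 for PSMG3, 4.57 for PSMB10 and 4.73 for PSMD4, where METTL14-KO and WTAP-KO had none, and 2.10 for PSMD12, with peaks in all libraries. Sizes other than that of PSMD12 depend on the added 30.1. Groups of 2 and 3 libraries are too small to test for a library that stands apart.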

How the results depend on the processing

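Of 726 values of named genes under the alternatives, 699 stayed on their side of the threshold without a change of sign, 13 kept the direction and lost the call, 4 gained it and 10 changed sign. Causes were not tested unless stated. PSMC2 went to 3.75 at the canonical start. PSMA2 went to -0.40 with 10 times the pseudocount, -0.76 with the peak threshold, -1.03 with the replicate block and without NTC replicate 1 or 3, -0.34 without METTL14-KO replicate 1 and -0.17 without WTAP-KO replicate 2, in a range of -1.03 to 3.38 without each library in turn. PSMA6 went to 0.61 with centring, and PSME4 to -0.091 with the peak threshold.

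Members called lower in METTL3-KO went from 25 to 14 with centring and 15 in units of the step, and in WTAP-KO from 30 to 19 with centring. Members higher in METTL3-KO than in the other KO groups went from 21 to 12 over genes marked in all NTC libraries, 10 with centring, 7 in units of the step and 10 with the peak threshold, where fewer peaks remain by construction. Without each library in turn they ranged from 13 to 23, with 13 without NTC replicate 2, NTC replicate 3 or METTL3-KO replicate 1. Leaving out a library gave 29 to 31 members lower in all KO groups, 21 to 26 in METTL3-KO, 27 to 30 in METTL14-KO and 28 to 31 in WTAP-KO.

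The mean number of marked members per NTC library went to 34.7 with a 3000 bp window, 26.3 at the gene start, 29.7 at the canonical start and 25.7 with the peak threshold. It went to 29.5 at the gene start and 16.5 with the threshold in METTL3-KO, 5.5 with the threshold in METTL14-KO and 3.5 in WTAP-KO. Leaving out a library gave 31 to 32 in NTC, 32 to 35 in METTL3-KO, 17 to 29 in METTL14-KO and 15 to 18 in WTAP-KO. Members marked in all NTC libraries and not in METTL3-KO went from 7 to 16 with the threshold and 11 in its second library alone, and to 7 to 11 without a library. Those in no KO library went to 16 with the threshold and 7 to 11 without a library. METTL14-KO ranged from 18 to 25 and WTAP-KO from 25 to 26. The median KO signal of members in all libraries, PSMC2 with its differing peaks included, went from 13.1% to 31.4% in units of the step and 11.3% to 15.0% without a library.

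Deviations of libraries with the same replicate number correlated at 0.00586 on average over 12 pairs, from -0.0578 to 0.0950. In a group of 2 libraries the deviations mirror each other, so pairs of KO libraries are counted in duplicate. The mean therefore cannot decide whether the numbers pair the libraries. With the replicate block, in which the third NTC library has a number of its own, 28 members were lower in all KO groups and 12 higher in METTL3-KO than in the other KO groups.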
